A study of Mus musculus with 2 samples.

Results

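The Nduf genes encode nuclear subunits and assembly factors of mitochondrial complex I (NADH:ubiquinone oxidoreductase). They were compared between interscapular brown adipose tissue (iBAT) of wild-type mice and of mice with a knockout of Ucp1, the gene of uncoupling protein 1 (UCP1). All genes with a symbol that starts with Nduf were taken, which gave 52 of the 27179 genes in the count tables. Of these, 36 encode subunits of the complex, 8 are assembly factors (Ndufaf1 to Ndufaf8), 6 are copies of subunit genes, and Ndufa4 and Ndufa4l2 carry the name without being counted as complex I subunits here. The RNA came from untreated 20-day-old C57BL/6N mice, described as male, that were either wild-type or carried the Ucp1 knockout. The sex-linked counts given below do not match that description for the wild-type pool. Tissue of 3 animals per genotype was pooled into 1 poly-A-enriched, directional library, of 52950913 (wild-type) and 53216727 (Ucp1-KO) counts. Each genotype thus had 1 library, and every difference below is one between 2 pools that can be set against counting error but not against the spread between animals. In bulk tissue, fewer cells of a type and less RNA per cell cannot be told apart.

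Complex I is the entry point of electrons from NADH into the respiratory chain, and brown fat, which burns fuel in densely packed mitochondria, is rich in it. The complex is L-shaped. In the matrix arm, the N module oxidises NADH and the Q module passes the electrons to ubiquinone. The membrane arm pumps protons. A set of core subunits, shared with bacteria, does the catalysis. The core subunits of the matrix arm are encoded in the nucleus, and those of the membrane arm by mitochondrial DNA (the ND genes). The other subunits are accessory ones that surround and stabilise the core, and assembly factors help to build the complex but are absent from the finished enzyme. UCP1 acts downstream of the chain by letting protons back into the matrix, so that the energy is released as heat.

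The targeted gene served as the check of the labels. Ucp1 reads numbered 366473 in wild-type iBAT against 37853 in the knockout, and the log2 ratio of Ucp1-KO over wild-type normalised counts was -2.98 (95% counting interval -3.00 to -2.95). A remainder of the transcript was thus still counted in the knockout. All 13 brown adipocyte markers were present in both libraries, 9 of them higher and 4 lower in Ucp1-KO, with a median log2 ratio of 0.49 and a range from that of Ucp1 to 2.52 (Elovl3). Markers of other cell types moved with the genotype too. All 21 skeletal muscle markers were lower by 2-fold or more in Ucp1-KO (log2 ratios -3.92 to -1.62) and their share of all reads was 0.697% (exact binomial interval 0.694% to 0.700%) in wild-type against 0.0865% (0.0853% to 0.0876%) in Ucp1-KO. All 8 endothelial markers were lower (-1.39 to -0.38), and the 8 macrophage markers ranged from -0.47 to 2.04. The genes Eif2s3y, Kdm5d, Uty and Ddx3y of the Y chromosome were listed at 0 in wild-type and at 491 to 3446 counts in Ucp1-KO, while Xist, the RNA of the inactive X chromosome, had 32380 and 16478 counts. The wild-type values, with Xist and no Y-linked counts, do not match the description of the animals as male, and Ucp1-KO held both kinds of transcript. The 2 pools thus differed in sex-linked transcripts, and genotype and the sex of the pooled animals cannot be told apart. The part of brown adipocytes, muscle, endothelium and immune cells in the values below was not tested.

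Several Nduf genes cannot be counted in isolation. The setting used for reads that match several places, and whether the counting used strand, are not given in the sources used here. In the genome build GRCm39, 14 of the 52 genes held at least 1 stretch of 100 transcript bases that is repeated elsewhere, and 20 shared exon bases with another protein-coding gene. Among the subunits the clearest case was Ndufs5, a membrane arm subunit on the face of the intermembrane space (chromosome 4, 123606481 to 123612002, minus strand), in which 61.8% of such stretches also occur at its processed pseudogene Ndufs5-ps on chromosome 16. The following 100 bases of its coding sequence, at bases 205 to 304 of the canonical transcript (the coding part is bases 100 to 417), are printed because they are identical at chr16:42776099-42776198, so that a read from them has 2 possible sources.
Ndufs5 coding bases shared with Ndufs5-ps: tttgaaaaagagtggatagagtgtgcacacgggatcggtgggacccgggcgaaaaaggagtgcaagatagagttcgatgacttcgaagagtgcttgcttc

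Ndufb4 is in the same position, with 38.0% of its stretches found again at Ndufb4c on chromosome 15 or Ndufb4b on chromosome 19, and all of those of Ndufb4c (100%) repeated. Ndufab1 followed at 22.6%, Ndufs3 at 19.4% and Ndufa12 at 15.6%. Overlap with a neighbour was largest for Ndufa3, which shared 78.1% of its exon bases with Oscar and Tfpt on the opposite strand. Ndufa4l2 shared 75.2% with Shmt2, Ndufb8 68.6% with Gm20538 on its own strand, Ndufb11 67.8% with Rbm10 and Ndufa6 59.0% with Smdt1. Ndufs7 followed at 56.85% (Gamt) and Ndufa13 at 54.3% (Tssk6 and Yjefn3). There were 15 subunits clear of both kinds of overlap, among them Ndufv1, Ndufc2, Ndufb10 and Ndufb7.

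Genes of the respiratory chain are textbook targets of the nuclear respiratory factor NRF1, of the ETS factor GABP (also called NRF2), of YY1 and of the oestrogen-related receptors (ERR), which the coactivator PGC-1alpha (Ppargc1a) binds. The promoters of 4 members are printed, from 250 bases before to 50 bases after the start of the GENCODE canonical transcript in GRCm39, 5′ to 3′ on the strand of the gene. Ndufa4l2 (chr10:127350568-127350867, plus strand) and Ndufa6 (chr15:82238474-82238773, minus strand) had the lowest and the highest log2 ratio among the members examined below, and Ndufaf8 (chr11:119989486-119989785, plus strand) and Ndufs5 (chr4:123611953-123612252, minus strand) were the members with more than 1 of the motifs searched. Capitals mark the motifs.
Ndufa4l2: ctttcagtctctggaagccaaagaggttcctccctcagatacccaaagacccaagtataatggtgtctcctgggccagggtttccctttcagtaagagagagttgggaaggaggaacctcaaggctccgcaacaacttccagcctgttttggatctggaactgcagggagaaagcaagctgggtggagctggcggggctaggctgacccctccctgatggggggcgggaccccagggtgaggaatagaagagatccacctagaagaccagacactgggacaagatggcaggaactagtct
Ndufa6: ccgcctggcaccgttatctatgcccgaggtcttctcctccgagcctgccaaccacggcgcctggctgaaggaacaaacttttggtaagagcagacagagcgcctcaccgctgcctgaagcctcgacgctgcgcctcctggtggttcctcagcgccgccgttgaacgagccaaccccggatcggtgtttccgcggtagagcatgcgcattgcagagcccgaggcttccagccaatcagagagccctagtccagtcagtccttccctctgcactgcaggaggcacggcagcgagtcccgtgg
Ndufaf8: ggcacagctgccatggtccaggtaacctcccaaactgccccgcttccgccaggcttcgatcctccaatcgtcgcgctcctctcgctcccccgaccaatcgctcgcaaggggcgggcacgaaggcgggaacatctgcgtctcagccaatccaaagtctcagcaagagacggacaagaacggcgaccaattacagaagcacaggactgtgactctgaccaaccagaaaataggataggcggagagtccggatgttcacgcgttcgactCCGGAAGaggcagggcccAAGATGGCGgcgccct
Ndufs5: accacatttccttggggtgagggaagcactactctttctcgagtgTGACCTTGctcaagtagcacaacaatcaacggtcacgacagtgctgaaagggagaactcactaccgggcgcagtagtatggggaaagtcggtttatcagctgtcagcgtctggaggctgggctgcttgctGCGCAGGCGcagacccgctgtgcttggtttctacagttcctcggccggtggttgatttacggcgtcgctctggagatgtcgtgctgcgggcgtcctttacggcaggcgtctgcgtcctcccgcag

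The letters searched on both strands were GCGCANGCG for NRF1, CCGGAAG for ETS factors, AAGATGGCG for YY1 and CAAGGTCA for ERR. The ETS and YY1 motifs can overlap by the letters AAG. With the start site as base 1, the first base of the ETS motif of Ndufaf8 was at 17 and that of its YY1 motif at 35, while in Ndufs5 the ERR motif, on the other strand, began at -205 and the NRF1 motif at -75. NRF1 motifs stood in 8 of the 52 promoters (15.4%), against 8.08% of 21751 promoters of protein-coding genes cut in the same way. The ETS motif stood in 7 (13.5%, against 10.3%), the YY1 motif in 3 (5.77%, against 1.34%) and the ERR motif in 1 (1.92%, against 1.58%). The sets are not alike, since the 52 include pseudogenes: Ndufb4c is among those with an NRF1 motif and Ndufs6b among those with the YY1 motif. Ndufa13 held the most NRF1 matches, 5 in its window, some of them the same palindrome read on both strands. The members with a motif did not share a direction in the expression data. The median log2 ratio was 0.01 over the 8 with an NRF1 motif and -0.02 over the 7 with the ETS motif. Over the 3 with the YY1 motif it was -0.34, though Ndufa9 among them stood at 0.07. Ndufs5, with the ERR motif, stood at -0.27. A match of letters is a description and not a binding site, and of the 52 windows 17 held at least 1 motif.

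To address whether the loss of UCP1 came with different transcript levels of the complex that feeds the proton gradient, each gene was examined by the log2 ratio of its normalised counts in Ucp1-KO over wild-type. Normalised counts are read counts divided by a size factor, here 1.11 (wild-type) and 0.901 (Ucp1-KO). Genes with a mean of 10 or more normalised counts were examined, which kept 50 of the 52 Nduf genes. The exceptions were the copies Ndufa11b, with 14 and 6 counts, and Ndufb11b, with 0 in both libraries, which allows up to 6 counts. None of the 50 differed 2-fold between the libraries, against a background of 17% of the 15212 genes examined (7.42% higher and 9.55% lower in Ucp1-KO). Only 4 of the 50 (8%) reached a log2 ratio of 0.5 in size, against 39.1% of all genes examined: Ndufa6 and Ndufc2 were higher in Ucp1-KO, and Ndufaf8 and Ndufa4l2 were lower. Among well-expressed genes, with a mean of 1000 or more, 1 of 38 members reached 0.5, against a background of 23.1%. The 2-fold background was also lower in that class, at 5.49%, against 0 of the 38 members.

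Small differences nonetheless exceeded counting error. The 95% counting interval lay above 0 for 19 of the 50 genes (background 31.5%), below 0 for 15 (background 30.5%) and included 0 for 16. These shares are near those of all genes. At a mean of 1000 or more, the interval lay above 0 for 16 of the 38 members and below 0 for 13. The backgrounds in that class were 44% and 32.9%. At this depth an interval is narrow: for Ndufv1, with 42851 and 43649 counts, it ran from 0.30 to 0.35, and it does not hold the differences between animals. The scale also matters. When the libraries were scaled to equal total counts, the median of all genes moved by -0.31, and when the mitochondrially encoded genes were left out of those totals it moved by -0.01. With total counts the interval lay above 0 for 3 of the 50 members (background 14.5%) and below 0 for 35 (background 53.8%). Under that scaling 5 subunits (Ndufa6, Ndufc2, Ndufb10, Ndufv1 and Ndufv3) and the assembly factor Ndufaf6 had log2 ratios above 0, and Ndufa6 and Ndufc2 stood at 0.31 and 0.27. Directions below are therefore relative to the other nuclear genes.

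**Figure D1:**
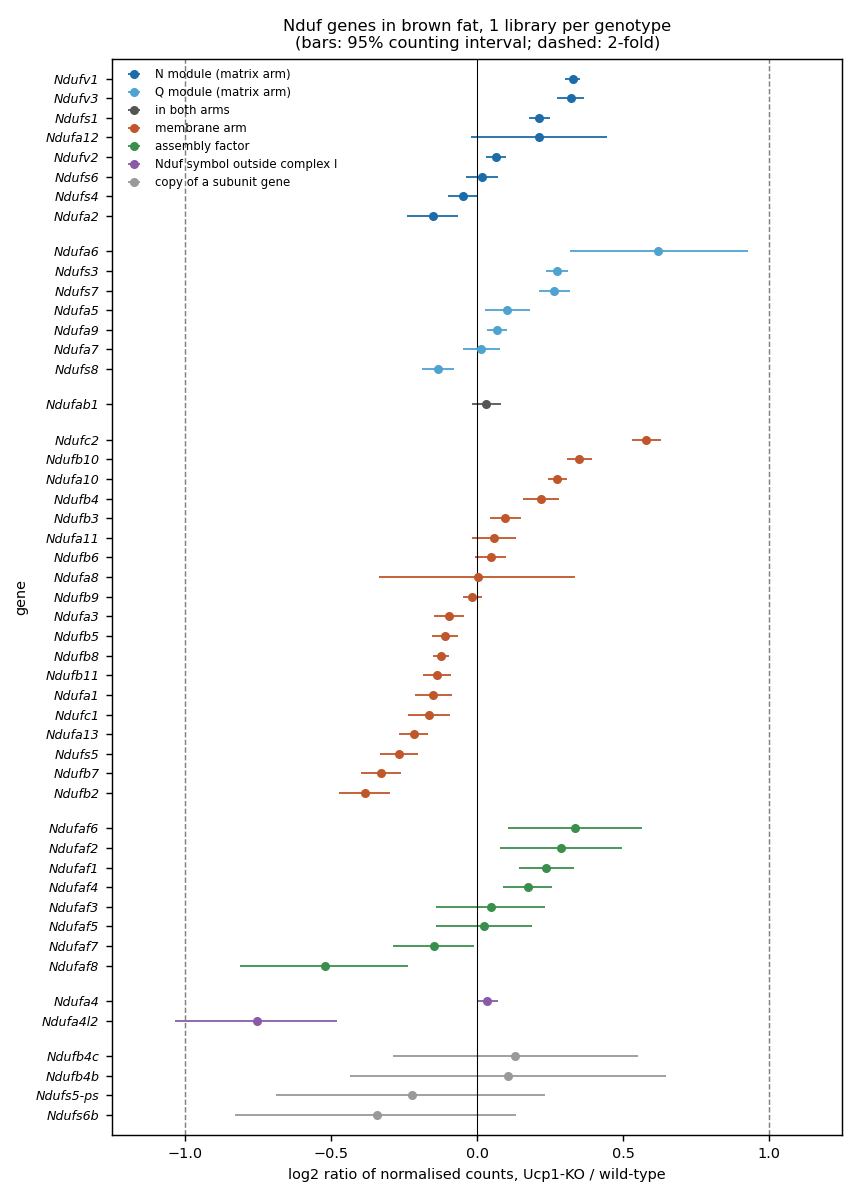
Log2 ratio of normalised counts, Ucp1-KO over wild-type (x axis), for 49 of the 50 Nduf genes examined (y axis), coloured by the place of the product in complex I. Bars are 95% counting intervals and dashed lines mark a 2-fold difference. No point reaches a dashed line, Ndufa6 and Ndufc2 stand furthest right and Ndufa4l2 and Ndufaf8 furthest left. With total-count scaling all points lie further left, by about 0.31.

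The 36 subunits together held 597594 wild-type counts, 1.13% of the library (1.12% to 1.13%), and 510177 Ucp1-KO counts, 0.959% (0.955% to 0.962%). Their median log2 ratio was 0.02 on the main scale and -0.28 with total counts, against -0.0016 and -0.31 for all genes examined. The ratios of the single subunits ran from -0.38 to 0.62, with 21 above and 15 below 0 (5 and 31 with total counts). Their SD over genes was 0.23, against 0.58 over the 6395 genes with a mean of 1000 or more normalised counts. The larger set holds extremes from -4.36 to 12.90 that widen its SD. By quartiles the 2 sets were closer, at -0.13 and 0.21 for the subunits and -0.20 and 0.31 for those genes.

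In the N module, where NADH is oxidised, the median log2 ratio of the 8 subunits was 0.14 (-0.17 with total counts), and 6 were above 0. Ndufv1, the flavin-bearing subunit that takes the electrons from NADH (chromosome 19, 4057384 to 4062814, minus strand), had 42851 wild-type and 43649 Ucp1-KO counts. After normalisation these were 38624 and 48426, a log2 ratio of 0.33 (0.30 to 0.35). The accessory subunit Ndufv3, which sits beside it, had 15039 and 15260 counts and a nearly equal ratio of 0.32 (0.27 to 0.37). Ndufs1, the largest subunit of the complex and a carrier of iron-sulphur clusters, had 24360 and 22936 counts and a ratio of 0.21 (0.18 to 0.25). The iron-sulphur subunit Ndufv2 was close to level at 0.07 (0.03 to 0.10). Of the other accessory subunits, Ndufa12 stood at 0.21 (-0.02 to 0.44), from 634 and 596 counts, and Ndufs6 at 0.02 (-0.04 to 0.07). Ndufs4, a subunit whose loss causes Leigh-like disease in mice, had 14040 and 11034 counts and a ratio of -0.05 (-0.10 to 0.00). Ndufa2 was the lowest of the module, with 5129 and 3749 counts and a ratio of -0.15 (-0.24 to -0.07).

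The Q module had a median of 0.09 over 8 subunits (-0.22 with total counts), and again 6 were above 0. Its core subunits did not move together. Ndufs3 had 23018 and 22593 counts and a log2 ratio of 0.27 (0.24 to 0.31), and Ndufs7, which carries the last iron-sulphur cluster before ubiquinone, had 11952 and 11664 and a ratio of 0.26 (0.21 to 0.32). Ndufs8, an iron-sulphur subunit, was lower, with 12499 and 9254 counts and a ratio of -0.13 (-0.19 to -0.08). Among the accessory subunits Ndufa5 stood at 0.10 (0.03 to 0.18), Ndufa9 at 0.07 (0.03 to 0.10) and Ndufa7 at 0.01 (-0.05 to 0.08).

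Ndufa6, an accessory subunit of the Q module that binds the acyl carrier protein Ndufab1, had the highest log2 ratio of all Nduf genes (chromosome 15, 82234340 to 82238523, minus strand). It had only 329 wild-type and 411 Ucp1-KO counts, or 297 and 456 normalised counts, and its ratio was 0.62 with a wide interval of 0.32 to 0.93. Smdt1, which shares 59.0% of its exon bases from the opposite strand, had 6373 and 3684 counts and a ratio of -0.49, opposite to that of Ndufa6. Its partner Ndufab1, the mitochondrial acyl carrier protein that stands in both arms, was level, with 15181 and 12606 counts and a ratio of 0.03 (-0.02 to 0.08). Over the core subunits of both modules the median was 0.21 (7 genes, -0.09 with total counts). Over the 16 matrix arm subunits it was 0.09 (-0.22), with 9 intervals above 0, 2 below and 5 that included it. The background is 31.5% above and 30.5% below 0 over all genes examined, and 44% and 32.9% at a mean of 1000 or more.

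The membrane arm leaned the other way, though by little. The median of its 19 subunits was -0.10 (-0.40 with total counts), with 8 above and 11 below 0. The interval lay above 0 for 5, below 0 for 10 and included it for 4. The background is 31.5% above and 30.5% below 0 over all genes examined, and 44% and 32.9% at a mean of 1000 or more. The direction of the membrane arm median was not stable. The summed counts of the same genes gave 0.02. The 6 subunits clear of repeats and of overlapping genes had a median of 0.06, with 3 above and 3 below 0. The difference between the arms was not tested, since 1 library per genotype gives no spread.

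Ndufc2, a small transmembrane subunit that pairs with Ndufc1 (chromosome 7, 97049210 to 97057022, plus strand), had the highest ratio of the membrane arm. The 12107 wild-type counts compared with 14692 in Ucp1-KO (10913 and 16300 after normalisation), and the log2 ratio was 0.58 (0.53 to 0.63). It was the single Nduf gene of that well-expressed class to pass 0.5, and it shares no exon bases with another gene and has no repeated stretch. Ndufc1 itself was lower, with 7444 and 5392 counts and a ratio of -0.17 (-0.24 to -0.09). Ndufb10, a subunit of the intermembrane space face, had 18003 and 18642 counts and a ratio of 0.35 (0.31 to 0.39). Ndufa10, which has the fold of a nucleoside kinase, had 28837 and 28342 counts and a ratio of 0.27 (0.24 to 0.31), and Ndufb4 stood at 0.22 (0.16 to 0.28). Ndufb3 (0.10), Ndufa11 (0.06), Ndufb6 (0.05), Ndufa8 (0.00) and Ndufb9 (-0.02) were close to level, and of these intervals that of Ndufb3 alone excluded 0.

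The lower end of the membrane arm held Ndufb2, Ndufb7 and Ndufs5. Ndufb2 (chromosome 6, 39569490 to 39595671, plus strand) had 5549 wild-type and 3453 Ucp1-KO counts, with a log2 ratio of -0.38 (-0.47 to -0.30). Ndufb7 (chromosome 8, 84293300 to 84298255, plus strand) had 9121 and 5897 counts and a ratio of -0.33 (-0.40 to -0.26), and Ndufs5 had 9551 and 6440 counts and a ratio of -0.27 (-0.33 to -0.20). Ndufb7 and Ndufs5, like Ndufa8 and Ndufb10, are proteins with paired cysteine motifs that are imported into the intermembrane space, and these 4 ranged from -0.33 to 0.35, so the group did not share a direction. The oxidative import factor of that pathway, Chchd4, stood at 0.23 (0.11 to 0.36). Ndufa13, also known as the cell death regulator GRIM-19, had 15375 and 10743 counts and a ratio of -0.22 (-0.27 to -0.17). Ndufb5 (-0.11), Ndufb8 (-0.12), Ndufa3 (-0.10) and the X-linked Ndufa1 (-0.15) and Ndufb11 (-0.14) were lower by up to 0.15, with intervals below 0. Ndufb1, also a membrane arm subunit, has no symbol in the tables and was not a member by the rule.

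**Figure D2:**
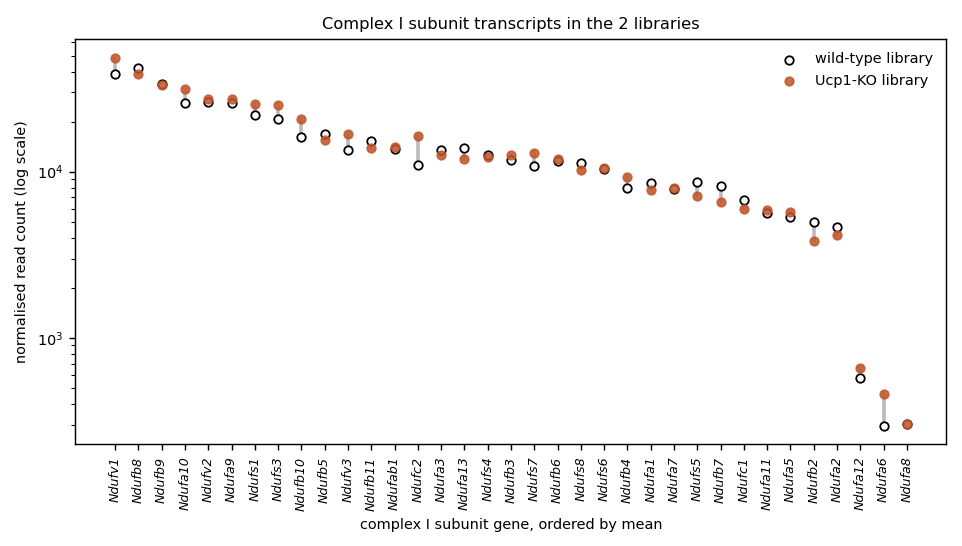
Normalised read counts (y axis, log scale) of 35 of the 36 complex I subunit genes (x axis, ordered by their mean) in the wild-type library (open circles) and the Ucp1-KO library (filled circles), with a grey line between the values of a gene. The 2 libraries show nearly the same order, from Ndufv1 at 38624 and 48426 to Ndufa8 at 304, and 3 genes (Ndufa12, Ndufa6 and Ndufa8) stand apart at the low end.

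Subunits of 1 complex differed widely in transcript level. Most subunits are present once per complex, but among the 35 subunits plotted, normalised counts ran from 297 (Ndufa6) to 42317 (Ndufb8) in wild-type and from 304 (Ndufa8) to 48426 (Ndufv1) in Ucp1-KO. Longer transcripts give more reads, so levels were compared per kilobase of merged exon. On that scale the range was 45.2 (Ndufa8) to 15347 (Ndufa1) normalised counts per kilobase in wild-type, with a median of 3226, and 45.2 (Ndufa8) to 18212 (Ndufc2) in Ucp1-KO, with a median of 3550. Ndufa8, Ndufa6, Ndufa12 and Ndufb2 were the lowest 4 in both libraries, also with the length of the canonical transcript in place of merged exons. By that length the top place went to Ndufb8 in both libraries, at 62048 and 56951 per kilobase, so the upper end depends on which length is used. Ndufa8 and Ndufa6 hold no repeated stretch of 100 bases, but they share 4.65% and 59.0% of their exon bases with a gene on the opposite strand. Ndufb2 shares 13.5% with its neighbours, and 15.6% of the stretches of Ndufa12 are repeated. The part of such overlaps in the low levels was not tested. Across the 36 subunits the log2 ratio bore little relation to transcript length (Pearson's r 0.01, Spearman's rho 0.12) or to mean level (-0.06 and 0.26), a description of genes that share the same 2 libraries.

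The assembly factors were expressed at lower counts than most subunits, from 319 to 4953, and had a median log2 ratio of 0.11 (8 genes, -0.20 with total counts), with 6 above 0. Ndufaf1, a member of the complex that builds the membrane arm with Ecsit, Acad9 and Tmem126b, had 3798 wild-type and 3637 Ucp1-KO counts, with a ratio of 0.24 (0.14 to 0.33). Ndufaf2, the late factor that holds the place of Ndufa12, had 759 and 752 counts and a ratio of 0.29 (0.08 to 0.50). Ndufaf6 had 625 and 640 counts and the highest ratio of the factors, 0.33 (0.10 to 0.56). Ndufaf3 and Ndufaf4 act together on the Q module, and they stood at 0.05 (-0.14 to 0.23) and 0.17 (0.09 to 0.26). Ndufaf7, a methyltransferase that acts on the Q module, had 2056 and 1506 counts and a ratio of -0.15 (-0.29 to -0.01).

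Ndufaf8 (chromosome 11, 119989736 to 119991531, plus strand), which stabilises the Ndufs7-modifying enzyme Ndufaf5, was the lowest assembly factor. It had 564 wild-type and 319 Ucp1-KO counts, or 508 and 354 normalised counts, a log2 ratio of -0.52 (-0.81 to -0.24). Its client Ndufaf5 was level, with 1339 and 1105 counts and a ratio of 0.02 (-0.14 to 0.19). Tepsin, which shares 33.4% of the exon bases of Ndufaf8 from the opposite strand, had 1138 and 867 counts and a ratio of -0.09.

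Assembly factors with other names gave a similar picture. The 13 of them found in the tables had a median of 0.13 (-0.18 with total counts), 8 above and 5 below 0. None differed 2-fold (background 17%, or 5.49% at a mean of 1000 or more). Tmem126b (1014 and 1041 counts, ratio 0.34) and Tmem126a (2210 and 2228, ratio 0.31) were the highest, and Nubpl, which delivers iron-sulphur clusters to complex I, was the lowest, with 1177 and 704 counts and a ratio of -0.44 (-0.64 to -0.25).

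Ndufa4l2 (chromosome 10, 127350818 to 127353038, plus strand), a gene known as a target of the hypoxia-inducible factor, lay furthest from 0 of the 50 Nduf genes. It had 673 wild-type and 324 Ucp1-KO counts, or 607 and 359 normalised counts, a log2 ratio of -0.75 (-1.03 to -0.48), and with total counts it stood at -1.06, past 2-fold. Shmt2, which covers 75.2% of its exon bases on the opposite strand, was level at 0.00, from 1447 and 1178 counts. Its relative Ndufa4, first assigned to complex I and now known as a subunit of cytochrome c oxidase, had 29543 and 24592 counts and a ratio of 0.04 (0.00 to 0.07). The 4 copies of subunit genes that were examined (Ndufb4b, Ndufb4c, Ndufs5-ps and Ndufs6b) had 112 to 208 counts and ratios of -0.34 to 0.13, and all 4 intervals included 0. They share sequence with their parent genes to different degrees, so their counts are uncertain.

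The nuclear subunits were then set beside the rest of the respiratory chain. The 7 mitochondrially encoded complex I subunits, which form the proton-pumping core of the membrane arm, were all higher in Ucp1-KO on the main scale, and with total counts all but ND1 (1417547 and 1367955 counts) were. Their median log2 ratio was 0.96 (0.65 with total counts), and together they took 7.75% (exact binomial interval 7.74% to 7.76%) of all wild-type reads, against 10.87% (10.86% to 10.88%) in Ucp1-KO. ND3 had 2978 and 26702 counts and a ratio of 3.46, ND6 169843 and 340934 counts and a ratio of 1.30, and ND5 553047 and 1086130 counts and a ratio of 1.27. The lowest of the 7, ND1, was at 0.25 (0.24 to 0.25). Of the 7, 6 passed 0.5, and of the 19 nuclear-encoded subunits of the same arm 1 did, where the background is 39.1% of all genes examined and 23.1% of those with a mean of 1000 or more. The difference between these lists was not tested. Repeats and overlapping genes were examined for the Nduf genes only, and whether the counting used strand is not given. The limits of the counts of the 7 mitochondrially encoded genes are therefore not known here.

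The nuclear subunits of complexes II to V had a median of -0.02 over the 44 genes examined (-0.33 with total counts), with 20 above and 24 below 0. By complex the medians were 0.18 (II, 3 genes), 0.00 (III, 8 genes), -0.05 (IV, 15 genes) and -0.06 (V, 18 genes). All 3 complex II genes examined had intervals above 0 (background 31.5%, or 44% at a mean of 1000 or more). Sdhd of complex II, at 0 counts in both libraries, and Uqcr11 of complex III, at 4 in both, were not examined. Whether their low counts come from the counting or from the tissue was not tested. Of the 44, 3 passed 2-fold, where the background is 17% of all genes examined and 5.49% of those with a mean of 1000 or more. All 3 were isoform genes of cytochrome c oxidase, and all had a mean below 1000, so the 5.49% is not their class. Cox6a2, the isoform of striated muscle and brown fat, had 943 and 176 counts and a ratio of -2.12 (-2.47 to -1.79). It was lower along with the muscle markers, and their part in it was not tested. Cox6b2 had 87 and 142 counts and a ratio of 1.00 (0.44 to 1.59). Cox7a2 had 3 and 31 counts and a ratio of 3.44 (1.34 to 7.57).

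**Figure D3:**
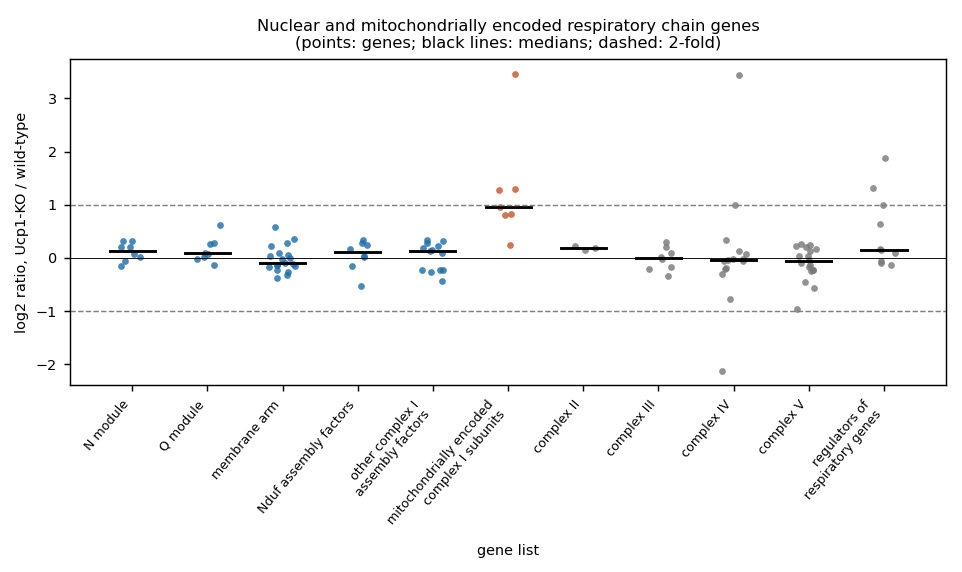
Log2 ratio, Ucp1-KO over wild-type (y axis), of the genes in each list (x axis), where each point is a gene, black lines are medians and dashed lines mark a 2-fold difference. The lists of nuclear-encoded complex I genes sit between -0.52 and 0.62, and the mitochondrially encoded complex I subunits have their median at 0.96 and 3 of 7 points above the upper dashed line.

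Regulators of these genes were listed next. Among 10 of them the median was 0.16 (-0.15 with total counts). Of the 10, 2 passed 2-fold (background 17%) and 4 passed 0.5 in size (background 39.1%), shares near those of all genes examined. At a mean of 1000 or more the backgrounds are lower, at 5.49% and 23.1%. Not all of the 10 belong to that class, but both genes past 2-fold, Ppargc1a and Pprc1, do. Ppargc1a, the coactivator that drives mitochondrial biogenesis in brown fat, had 4105 wild-type and 12332 Ucp1-KO counts, with a log2 ratio of 1.89 (1.81 to 1.96). Its relative Pprc1 had 759 and 1542 counts and a ratio of 1.32, and the oestrogen-related receptor gene Esrrg had 721 and 1171 counts and a ratio of 1.00 (0.81 to 1.19). The factors whose motifs were searched in the promoters were nearer to level: Nrf1 stood at 0.14 (-0.07 to 0.35), Gabpa at -0.06 (-0.15 to 0.04), Yy1 at 0.18 (0.06 to 0.29) and Esrra at 0.10 (0.03 to 0.17), and were named for that reason after their values were seen.

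**Figure D4:**
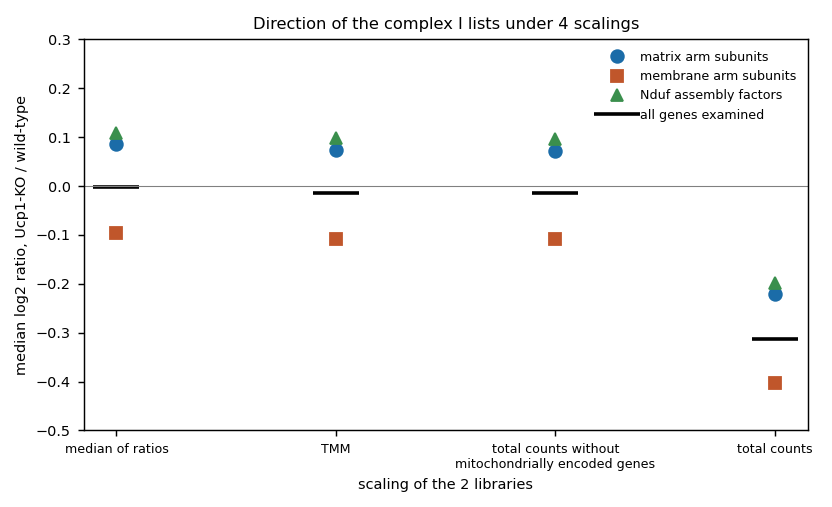
Median log2 ratio, Ucp1-KO over wild-type (y axis), of matrix arm subunits (circles), membrane arm subunits (squares), Nduf assembly factors (triangles) and all genes examined (black bars) under 4 ways of scaling the libraries (x axis). With total counts the matrix arm moves from 0.09 to -0.22 and the membrane arm from -0.10 to -0.40, along with the median of all genes, which moves to -0.31.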

How the data were processed

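Poly-A-enriched, directional RNA-seq libraries were made from iBAT of 20-day-old mice, 1 wild-type and 1 Ucp1-KO, each from 3 pooled animals. The deposited values are raw read counts per gene that the authors made with featureCounts. Trim Galore, HISAT2 and build mm39 are named in the submitters' processing notes. Annotation, strand and multimapping settings are not given in the sources used here. Totals were 52950913 (wild-type) and 53216727 counts (Ucp1-KO), of which 0.156% and 0.121% fell on genes without a symbol.

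Size factors came from the median-of-ratios method of DESeq2 1.42.0 in R 4.3.3. Ratios are log2 of Ucp1-KO over wild-type after 0.5 was added to both normalised counts, for genes with a mean of at least 10. With 1 library per genotype no test, p-value or SD was possible. Even values made up 70.7% (wild-type) and 73.4% (Ucp1-KO) of the counts from 1 to 10, as when both mates of a pair are counted. From 100 to 1000 they made up 49.9% and 50.2%, without an excess. Because of the excess at low counts, counting intervals (exact conditional binomial, Clopper-Pearson, 95%, scipy 1.17.1) were computed on counts divided by 2. The limit behind a count of 0 is 3 read pairs, or 6 counts (0.113 CPM). Intervals cover counting error only.

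Positions, lengths, repeats and promoters came from GRCm39 with GENCODE mouse release 39, joined by symbol (52 of 52 members). The members and lists were chosen with earlier results of these data known. Every Nduf gene could be named, and of other lists the 3 members furthest from 0, with exceptions stated. The values of 1 member are not reported here, though it is part of the counts and medians. Alternatives were TMM factors (edgeR 4.0.16), total counts with and without mitochondrially encoded genes, a pseudocount of 5, other filters on low counts, sums in place of medians and intervals on counts as deposited.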

Additional observations from a re-analysis of the deposited data

Results flagged for a closer look

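Ndufb1, a membrane arm subunit of complex I, is not found by symbol in the tables. A gene listed without a symbol carries an Entrez identifier that RefSeq's gene table pairs with Ndufb1, and it had signal in both libraries, above the 6 counts that a count of 0 allows. It had 1259 wild-type and 1212 Ucp1-KO counts, or 1135 and 1345 normalised counts, a log2 ratio of 0.24 (95% counting interval 0.08 to 0.41). It lies outside the comparisons above because its row could not be chosen by symbol. The difference was not tested, since each genotype has 1 library.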

How the results depend on the processing

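No paired analysis was possible because only 1 pool per genotype was sequenced, and leaving out a library would remove a whole group. Total-count scaling gave medians of -0.28 for the complex I subunits, -0.094 for the core subunits, -0.17 for the N module, -0.22 for the Q module, -0.22 for the matrix arm, -0.40 for the membrane arm, -0.20 for the Nduf assembly factors, -0.18 for the other assembly factors, -0.15 for the regulators, 0.65 for the mitochondrially encoded subunits and -0.33 for complexes II to V. Relative to all genes the subunit median was 0.03 under total counts and 0.03 on the main scale. Under total counts 2 Nduf genes (Ndufa4l2, and Ndufa11b from 14 and 6 counts) were at least 2-fold lower, and 732 of all genes were at least 2-fold higher and 2320 lower, so that 24% of the genes past 2-fold were higher, against 43.7% on the main scale. The mitochondrially encoded median was 0.95 with TMM factors and 0.95 with total counts that leave out these genes. Summed counts gave 0.071 for the complex I subunits, 0.15 for the core subunits, 0.016 for the membrane arm, 0.64 for the regulators, 0.79 for the mitochondrially encoded subunits and 0.069 for complexes II to V, since a sum is set by its most abundant members. The 6 membrane arm subunits clear of repeats and overlaps had a median of 0.062, and the 15 such subunits of the whole complex 0.065. These alternatives were chosen after seeing the data, as were the inclusion of Ndufb1, which gave the membrane arm -0.056, and the canonical transcript length. A log2 ratio of 0.5 as the rule left 2 Nduf genes higher and 2 lower, and 2781 and 3161 of all genes. Without a filter 2187 of all genes were higher and 2844 lower, and with a minimum mean of 50 there were 617 and 811. Intervals on counts as deposited lay above 0 for 22 members and below 0 for 17. Depth limits Ndufa6, Ndufa8, Ndufaf8 and the copies, whose intervals are wide.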
